A study of Homo sapiens with 6 samples.

Results

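The 36 genes described here make cholesterol and fatty acids or control their making: 5 sterol-sensing regulators, 18 enzymes of the cholesterol arm, 12 enzymes of the fatty acid arm and the sterol carrier STARD4. They were taken by symbol from the 63677 genes of the deposited tables, where their symbols match 39 gene identifiers. Of these, 3 second identifiers (for NSDHL, EBP and ACLY) had no counts and were set aside, which left 36 genes, all 36 of which had enough counts to be tested. The cells were RPMI-8402, an established human T cell acute lymphoblastic leukaemia line in which Cas9 is stably expressed and guide RNAs against MYC are switched on by doxycycline. DMSO, the solvent, was given to 3 samples and doxycycline to the other 3, in each case for 72 hours and both labelled with the genotype MYC_KO. All groups therefore carried Cas9 and the guide construct, and no sample that received doxycycline without such guides was analysed here. The sources used here do not give the guide sequences, the dose, or whether the line was 1 clone. Nothing in the labels ties the replicates to separate cultures, so p-values reflect the spread among these samples, which may be technical.

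Cells build cholesterol from acetyl-CoA through mevalonate, isoprenoids, squalene and lanosterol, and build fatty acids from the same acetyl-CoA by carboxylation, chain assembly, elongation and desaturation. Both routes are switched on by SREBP transcription factors, which SCAP carries out of the endoplasmic reticulum when sterols are low and which INSIG proteins hold back when sterols are high. Dividing leukaemia cells draw on both routes for membranes, and intermediates of the cholesterol route also supply ubiquinone, dolichol and the lipid anchors of small GTPases. Many SREBP target promoters also bind NF-Y, a factor that recognises the CCAAT box, and MYC and SREBP proteins can each bind E-box sequences.

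MYC itself, the gene the guides are directed at, had 10315, 10216 and 9331 reads in the DMSO libraries and 12082, 11298 and 11533 in the doxycycline libraries, or 409, 422 and 407 against 459, 431 and 431 CPM. CPM scales a gene's count to the size of its library, here with TMM factors. Its log2 fold change was 0.09 (SE 0.049, edgeR adjusted p = 0.160), and with upper-quartile scaling it passed as higher (0.14, adjusted p = 0.0357), so its RNA count does not show the edit. A count over the gene does not read small insertions or deletions. Total counts ran from 23121255 to 26214598 per library. T cell markers summed to between 3066 and 3284 CPM in every library, and the 12 on the list, CD3E and LCK among them, were all detected. Of these, TRAC (12 to 30 reads per library) and PTCRA (26 to 56 reads) were low. Markers of other cell types were low: the summed level of 6 B cell genes ran from 11.5 to 12.9 CPM in DMSO and 16.2 to 17.2 CPM in doxycycline, that of 6 myeloid genes from 1.07 to 1.27 and 2.17 to 2.25 CPM, and that of 5 epithelial and 5 erythroid genes stayed under 0.199 CPM, with MS4A1, HBB and EPCAM at 0 counts in all 6 libraries. Among 5 fibroblast genes COL1A1 made up nearly all of 39.9 to 40.3 CPM in DMSO and 47.3 to 53.0 CPM in doxycycline, while COL1A2, COL3A1 and LUM had 0 counts. The part of the B cell, myeloid and COL1A1 differences in the results was not tested.

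Of the 36 genes, 11 fell and 4 rose in the doxycycline samples (edgeR quasi-likelihood test, adjusted p under 0.05), and sizes of these 15 changes ran from 0.14 to 0.47 on the log2 scale with a median of 0.22. Those that fell were INSIG1, ACAT2, IDI1, FDPS, FDFT1, SQLE, EBP, DHCR7, SCD, FADS1 and ACSL3, and those that rose were MVD, TM7SF2, ACACB and ACSS2. The share that fell, 30.6%, stood beside 15.5% of all 15492 tested genes and 23.4% of the 9671 tested genes averaging a log2 CPM of 3 or more, a level reached by 34 of the 36. The share that rose, 11.1%, stood beside 13.8% of all tested genes and 14.1% of those well counted genes. The share changed in either direction, 41.7%, stood beside 29.3% of all tested genes and 37.6% of well counted genes, close to the latter, and nothing about the pathway is read from these counts. In bulk RNA, fewer cells that express a gene and less of its RNA per cell cannot be told apart.

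Of the 15 calls, 7 held under each of 13 alternative fits: the falls of INSIG1, SQLE, SCD and FADS1 and the rises of TM7SF2, ACACB and ACSS2. The other 8 were lost under at least 1 alternative. With upper-quartile scaling ACAT2, IDI1, FDPS, FDFT1, DHCR7 and ACSL3 no longer passed, and with library size alone the same genes but FDPS. The plot of levels by library shows how the 6 libraries spread for each gene.

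**Figure D1:**
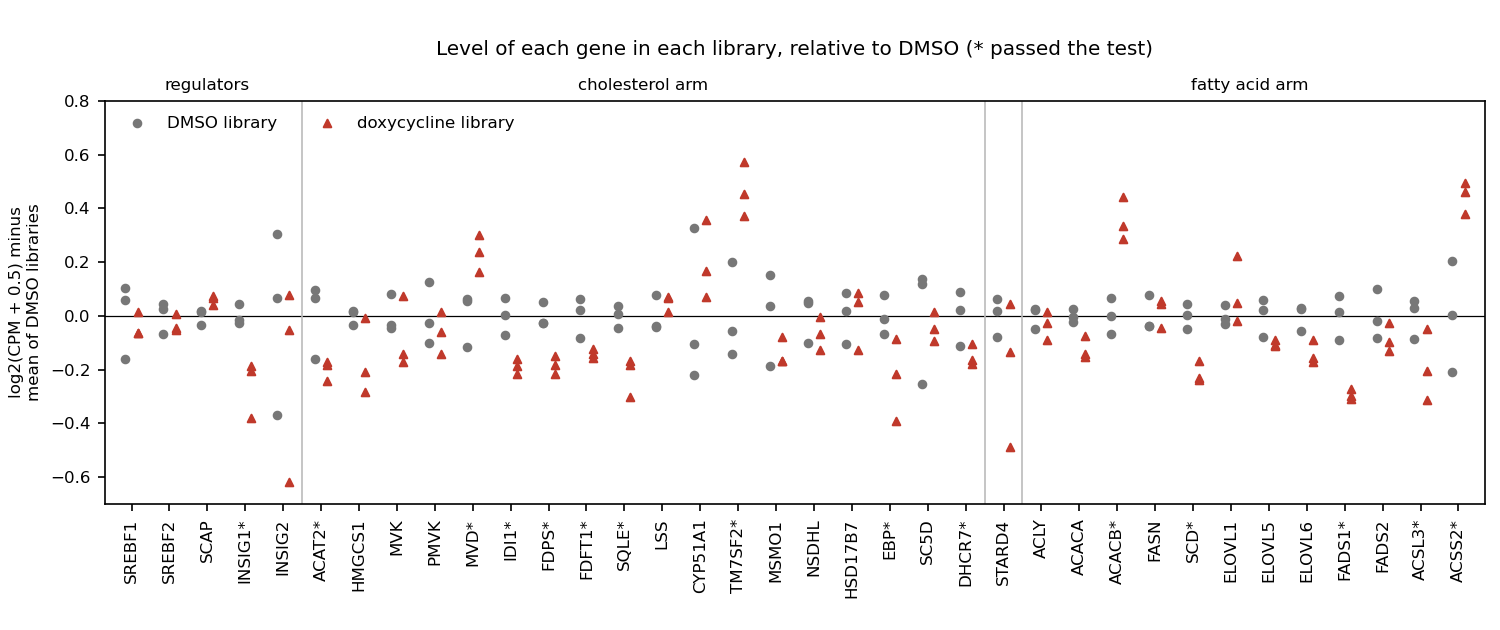
Each gene's log2(CPM + 0.5) in each library minus the mean of the 3 DMSO libraries (grey circles, DMSO; red triangles, doxycycline), ordered by role, with STARD4 between the last vertical lines and an asterisk on the 15 genes that passed edgeR's test. For TM7SF2, ACACB, ACSS2 and MVD every doxycycline library lies above every DMSO library, while for SREBF1, FASN and LSS the groups overlap.

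Promoter sequences of the pathway were compared for 3 motifs, the CCAAT box, the sterol regulatory element and the E-box. RefSeq windows on GRCh38.p14, which run from 250 bases before to 50 bases after a transcription start, were found for 32 of the 36 genes (44 windows). The CCAAT box (CCAAT, either strand) was in 15 of 20 cholesterol arm windows and 11 of 17 fatty acid arm windows, against 34.7% of 22198 windows of protein-coding genes. It was in the windows of 13 of 15 cholesterol genes and 9 of 11 fatty acid genes. By gene, 7 of 8 that fell, 4 of 4 that rose and 14 of 20 that did not pass had one, beside 6675 of 15842 protein-coding genes. ACAT2, FDFT1, SQLE and FASN had no window and are not in these counts. A sterol regulatory element (TCACNCCAC, either strand) was in the window of 1 gene, SREBF2, and in 1.13% of protein-coding windows. Elements that differ from this string or lie outside the windows were not looked for. The E-box (CACGTG, the same on both strands) was in the windows of 5 genes (INSIG1, SCAP, SC5D, LSS and ELOVL5), or 13.6% of member windows, against 8.34% of protein-coding windows. A match is a string of letters, and binding was not measured here.

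A selection of stretches is shown, with regulators, genes that fell and genes that rose that carry these motifs, given 5′ to 3′ on the gene's own strand and stopped where annotated exons of coding genes begin, except for a pair of 30-base sites. Capitals mark a motif match, with ATTGG standing for CCAAT on the opposite strand.
SREBF2, chr22:41832855-41833078, plus strand, with the sterol element and a CCAAT box: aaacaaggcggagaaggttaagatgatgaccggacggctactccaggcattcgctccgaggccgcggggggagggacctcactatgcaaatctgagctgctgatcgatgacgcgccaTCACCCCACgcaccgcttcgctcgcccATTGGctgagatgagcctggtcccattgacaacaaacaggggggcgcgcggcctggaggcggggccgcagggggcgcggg
INSIG1, chr7:155297628-155297775, plus strand, with a CCAAT box: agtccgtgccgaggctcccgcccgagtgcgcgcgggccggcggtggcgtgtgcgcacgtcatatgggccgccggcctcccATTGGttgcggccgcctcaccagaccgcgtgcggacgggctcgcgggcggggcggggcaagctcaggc
INSIG1, chr7:155297811-155297840, plus strand, around the E-box: gccgggcaggctCACGTGatgcgggccccg
FDPS, chr1:155308616-155308747, plus strand, a gene that fell: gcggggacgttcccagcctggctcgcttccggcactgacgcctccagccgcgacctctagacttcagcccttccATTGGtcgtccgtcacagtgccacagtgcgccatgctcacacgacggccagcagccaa
MVD, chr16:88663162-88663341, minus strand, a gene that rose: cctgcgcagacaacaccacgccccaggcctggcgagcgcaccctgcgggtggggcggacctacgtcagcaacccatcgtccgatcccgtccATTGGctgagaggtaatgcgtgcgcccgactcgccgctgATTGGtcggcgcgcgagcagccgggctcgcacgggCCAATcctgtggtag
TM7SF2, chr11:65111786-65111815, plus strand, a gene that rose: ccccgagcgccgATTGGctggtgtgctggg
SCD, chr10:100346983-100347123, plus strand, a gene that fell: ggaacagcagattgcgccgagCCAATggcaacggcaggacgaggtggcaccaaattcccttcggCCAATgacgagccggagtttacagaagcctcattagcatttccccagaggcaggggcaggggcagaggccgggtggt
ACACB, chr12:109154429-109154678, plus strand, a gene that rose: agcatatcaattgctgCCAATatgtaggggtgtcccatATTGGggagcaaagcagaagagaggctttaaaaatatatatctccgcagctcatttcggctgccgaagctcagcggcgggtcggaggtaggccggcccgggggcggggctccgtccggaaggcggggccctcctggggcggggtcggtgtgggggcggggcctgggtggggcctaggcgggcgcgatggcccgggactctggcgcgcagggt
The stretch of FDPS is cut short by an exon, and its whole window holds 3 CCAAT boxes, as does that of MVD. SCAP, IDI1, EBP, DHCR7, ACSL3 and ACSS2 also had a match and are not shown.

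Among the regulators only INSIG1 passed the test. INSIG1, the sterol-responsive anchor that retains SCAP, measured 272, 274 and 285 CPM in DMSO replicates 1 to 3, against 213, 243 and 240 CPM in the doxycycline libraries, taken in the same order. All doxycycline values lay below all DMSO values, and the log2 fold change was -0.25 (SE 0.053, edgeR adjusted p = 8.02e-04). INSIG2, its paralog, was far lower, with a mean of 6.58 ± 1.62 CPM under DMSO and 5.68 ± 1.47 CPM under doxycycline (SD, n = 3 each), and did not pass (-0.21, SE 0.160). The count ratio of INSIG1 to INSIG2 was 44.0 ± 11.4 in DMSO and 42.4 ± 9.19 in doxycycline (SD, n = 3 each), too spread to tell the paralogs' changes apart (exact permutation p = 0.9, two-sided).

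The transcription factors and their escort were close to level. SREBF1, which encodes the SREBP more tied to fatty acid genes, had 418, 503 and 487 CPM in DMSO and 447, 447 and 472 CPM in doxycycline replicates 1, 2 and 3. Its log2 fold change was -0.04 (SE 0.058, edgeR adjusted p = 0.617). In GENCODE 29, 6.92% of the exonic bases of SREBF1 lie opposite exons of RAI1. RAI1 rose (0.20, edgeR adjusted p = 0.00353, and -0.07 and not passing with GC content and length corrected). Whether reads of RAI1 entered the count of SREBF1 was not tested. SREBF2, the SREBP more tied to sterol genes, had a log2 fold change of -0.03 (SE 0.049) and SCAP one of 0.06 (SE 0.047). Neither passed, though every doxycycline library was above every DMSO library for SCAP. Its levels were 209, 216 and 217 CPM in DMSO and 224, 220 and 225 CPM in doxycycline replicates 1, 2 and 3. DMSO replicate 1 was the lowest of all 6 libraries for SREBF1. These 3 genes are rich in G and C, and with GC content and length corrected each passed as lower, at -0.23 for SREBF1 (edgeR adjusted p = 0.00258), -0.18 for SREBF2 (0.00374) and -0.12 for SCAP (0.0368), SCAP with its sign turned.

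In the cholesterol arm, 7 of 18 genes fell and 2 rose, with a median log2 fold change of -0.11 against 0.00 over all tested genes and -0.04 over the well counted ones. Along the 8 steps that lead to squalene, 4 genes fell and 1 rose. ACAT2, the thiolase that joins acetyl-CoA units, had 22.2, 22.7 and 18.9 CPM in DMSO replicates 1, 2 and 3 and 17.8, 18.6 and 18.8 CPM in doxycycline (log2 fold change -0.21, SE 0.076, edgeR adjusted p = 0.0366). DMSO replicate 3 lay only just above the doxycycline libraries. The ACAT2 call was lost on leaving out any library but DMSO replicate 3, with adjusted p from 0.0648 without doxycycline replicate 2 to 0.146 without DMSO replicate 1. In GENCODE 29, 33.9% of the exonic bases of ACAT2 lie opposite exons of SOD2-OT1, 26.5% opposite SOD2 (85.7 and 83.3 CPM, -0.04, not passing) and 9.23% opposite TCP1, a chaperonin gene that fell (-0.30, from 284 to 230 CPM, and -0.17 with GC content and length corrected). The strand setting of the counting is not known, so the value of ACAT2 is uncertain. The same limit holds for FDPS, HMGCS1 and IDI1, with 18.6%, 15.0% and 14.8% of their exonic bases opposite an antisense gene.

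HMGCS1, which makes HMG-CoA, had 31.8, 30.7 and 31.8 CPM in DMSO and 25.7, 27.1 and 31.2 CPM in doxycycline replicates 1, 2 and 3. Doxycycline replicate 3 overlapped the DMSO libraries and the gene did not pass (-0.17, SE 0.069, edgeR adjusted p = 0.0743), though without that library it did (-0.25, adjusted p = 0.0176). The kinases MVK and PMVK, which phosphorylate mevalonate in turn, did not pass either, at -0.08 (SE 0.083) and -0.07 (SE 0.069).

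MVD, the decarboxylase that yields isopentenyl diphosphate, was the exception on this stretch. Its levels were 30.8, 31.0 and 27.3 CPM in DMSO and 35.1, 33.3 and 36.6 CPM in doxycycline replicates 1, 2 and 3, a rise of 0.23 (SE 0.066, edgeR adjusted p = 0.00847). The doxycycline libraries were all above the DMSO libraries. That call was lost without DMSO replicate 3 (adjusted p = 0.0567), without doxycycline replicate 3 (0.0605) and with GC content and length corrected (0.10, adjusted p = 0.204).

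The next enzymes carry the isoprenoids to squalene, and all 3 fell by similar amounts. IDI1, the isopentenyl diphosphate isomerase, went from 56.6, 51.4 and 54.2 CPM in DMSO to 46.5, 48.3 and 47.4 CPM in doxycycline (-0.19, SE 0.057, edgeR adjusted p = 0.0130). FDPS, which makes farnesyl diphosphate, went from 74.1, 78.5 and 74.3 to 66.5, 65.0 and 68.1 CPM (-0.18, SE 0.053, adjusted p = 0.00969). FDFT1, squalene synthase, went from 414, 426 and 385 to 375, 366 and 369 CPM (-0.14, SE 0.050, adjusted p = 0.0327). None of the 3 genes had overlapping groups. FDPS passed without any 1 library and with GC content and length corrected (-0.20), and missed the threshold with upper-quartile scaling (-0.14, adjusted p = 0.0545). IDI1 did not pass without DMSO replicate 1 (adjusted p = 0.0875), without doxycycline replicate 1 (0.0520) or with the correction (-0.06). The fall of FDFT1 passed only without DMSO replicate 3 when single libraries were left out. For FDFT1 the other 5 omissions gave adjusted p from 0.0616, without doxycycline replicate 1, to 0.107, without doxycycline replicate 2, and the correction gave -0.08 (adjusted p = 0.146).

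After squalene, 3 of 10 genes fell and 1 rose. SQLE, squalene epoxidase, which opens the sterol branch, had 70.4, 67.8 and 71.8 CPM in DMSO and 61.7, 62.3 and 56.7 CPM in doxycycline replicates 1, 2 and 3. The groups were apart, with a log2 fold change of -0.22 (SE 0.055, edgeR adjusted p = 0.00418), and the fall held without any 1 library. The GC and length correction gave -0.14 (adjusted p = 0.0357). LSS, which closes the ring to lanosterol, differed by less than its error (0.05, SE 0.052).

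TM7SF2, a sterol reductase that acts on the product of lanosterol demethylation, had the largest change of the 36 genes. It had 12.7, 16.3 and 13.5 CPM in DMSO and 21.2, 18.4 and 19.5 CPM in doxycycline replicates 1, 2 and 3, a rise of 0.47 (SE 0.086, edgeR adjusted p = 2.09e-04). The lowest doxycycline library was above the highest DMSO library. With GC content and length corrected the rise was 0.36 (adjusted p = 0.00154).

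EBP, the sterol isomerase, had 48.2, 51.2 and 46.4 CPM in DMSO and 45.7, 36.9 and 41.7 CPM in doxycycline (-0.23, SE 0.068, edgeR adjusted p = 0.0115). Doxycycline replicate 2 was the lowest, and without it the call was lost (-0.16, adjusted p = 0.111). DHCR7, which catalyses the last reduction to cholesterol, had 59.1, 67.9 and 64.8 CPM in DMSO and 56.3, 56.9 and 59.3 CPM in doxycycline. Its groups overlapped, since doxycycline replicate 3 was above DMSO replicate 1, and it passed narrowly (-0.15, SE 0.058, adjusted p = 0.0493). For DHCR7 the call held only without DMSO replicate 1 when single libraries were left out, with adjusted p from 0.0692 without doxycycline replicate 3 to 0.181 without DMSO replicate 2 for the other 5, while the correction gave -0.24 (adjusted p = 0.00211). MSMO1, NSDHL, HSD17B7 and SC5D, which oxidise or reduce the sterol ring, had log2 fold changes from -0.15 to 0.01 and overlapping groups. HSD17B7 shares sequence with the pseudogene HSD17B7P2, which had 84 to 127 reads per library, so its count is uncertain.

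CYP51A1, the lanosterol demethylase that lies between LSS and TM7SF2 in the route, was nearly without counts. It had 13, 21 and 10 reads in DMSO and 17, 19 and 24 reads in doxycycline replicates 1, 2 and 3, and its log2 fold change of 0.31 had an SE of 0.315 (edgeR adjusted p = 0.491). In GENCODE 29, 79.4% of its exonic bases also belong to another coding gene on the same strand, AC000120.2, and it was the only one of the 36 genes to share over 10% of its bases with a gene on the same strand. LRRD1, its neighbour, had 1 to 7 reads. Whether reads shared by overlapping genes were dropped in counting was not tested, so the level of CYP51A1 is not taken as its expression. STARD4, which moves sterols between membranes, did not pass (-0.18, SE 0.096, adjusted p = 0.156). Without doxycycline replicate 2, at 18.3 CPM the highest of its group, STARD4 passed as lower (-0.31, adjusted p = 0.0189).

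**Figure D2:**
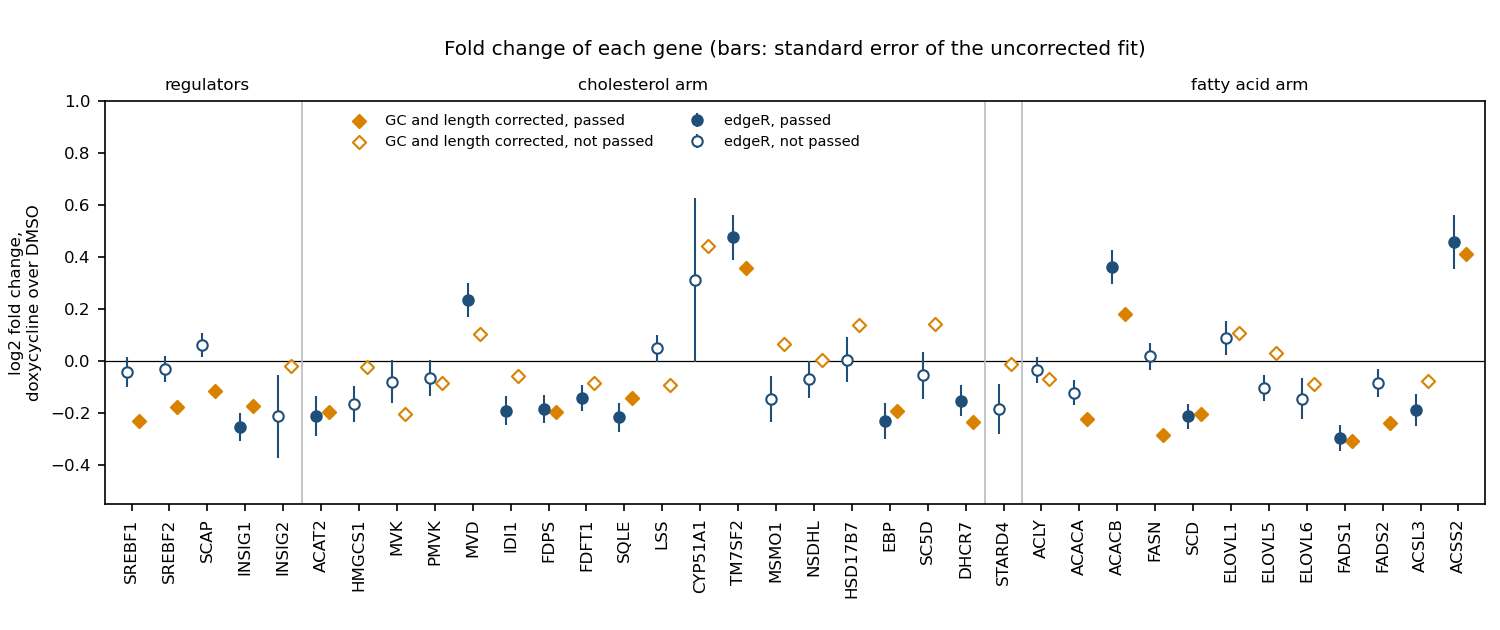
The log2 fold change of doxycycline over DMSO for each gene in order of role, as fitted by edgeR (blue circles with standard errors) and with GC content and length corrected (orange diamonds), filled where the adjusted p was under 0.05, with STARD4 between the last vertical lines. INSIG1, SQLE, SCD and FADS1 are filled and below 0 and TM7SF2, ACACB and ACSS2 filled and above 0 in both fits, whereas SREBF1, SREBF2, SCAP, ACACA, FASN and FADS2 are filled only after the correction.

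The fatty acid arm held 3 falls and 2 rises among 12 genes, with a median log2 fold change of -0.10. ACLY, which makes cytosolic acetyl-CoA from citrate, had 447, 445 and 424 CPM in DMSO and 442, 412 and 431 CPM in doxycycline, with overlapping groups (-0.03, SE 0.049). ACSS2, the enzyme that makes the same acetyl-CoA from acetate, rose. It went from 7.38, 8.55 and 6.29 CPM in DMSO to 10.6, 9.72 and 10.3 CPM in doxycycline replicates 1, 2 and 3 (0.46, SE 0.104, edgeR adjusted p = 0.00170). The groups were apart, and the rise held without any 1 library and with GC content and length corrected (0.41).

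The acetyl-CoA carboxylases, which make malonyl-CoA, differed from each other. ACACB, the form known to sit at mitochondria where its product restrains fatty acid import, rose from 25.1, 26.3 and 27.6 CPM in DMSO to 36.02, 32.2 and 33.4 CPM in doxycycline replicates 1, 2 and 3 (0.36, SE 0.065, edgeR adjusted p = 2.00e-04). Its rise was smaller, 0.18, with the GC and length correction (adjusted p = 0.0277). ACACA, the cytosolic form that feeds fatty acid synthesis, had 176, 172 and 170 CPM in DMSO and 155, 157 and 164 CPM in doxycycline. Its doxycycline libraries all lay below the DMSO libraries, but the change missed the threshold (-0.12, SE 0.048, adjusted p = 0.0548), and it passed with DESeq2, whose values here equal the deposited ones (-0.13, adjusted p = 0.0271), and with GC content and length corrected (-0.22). The count ratio of ACACB to ACACA was 0.143, 0.153 and 0.162 in DMSO and 0.232, 0.205 and 0.203 in doxycycline replicates 1, 2 and 3. That ratio was higher in every doxycycline library, and a two-sided exact permutation test gave p = 0.1, the smallest that 3 against 3 allows (0.15 adjusted over 3 ratios).

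FASN, fatty acid synthase, was even between groups in this fit. It had 592, 642 and 593 CPM in DMSO and 633, 590 and 627 CPM in doxycycline replicates 1, 2 and 3 (0.02, SE 0.051, edgeR adjusted p = 0.839). At 65.3% its GC content was the highest of the 36 genes. With GC content and length corrected FASN passed as lower (-0.29, adjusted p = 5.52e-05), with its sign turned, so no direction is given for it.

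The desaturases SCD and FADS1 gave the firmest falls of this arm. SCD, which puts the first double bond into saturated chains, went from 465, 496 and 482 CPM in DMSO to 428, 409 and 408 CPM in doxycycline replicates 1, 2 and 3 (-0.21, SE 0.049, edgeR adjusted p = 0.00192). FADS1, the delta-5 desaturase of polyunsaturated chains, went from 332, 357 and 372 to 285, 292 and 287 CPM (-0.30, SE 0.051, adjusted p = 1.12e-04), the largest fall of the 36. In both genes every doxycycline library was below every DMSO library, and the calls held with the correction and without any 1 library.

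FADS2, the delta-6 desaturase encoded beside FADS1 and read from the opposite strand, had 968, 1097 and 1012 CPM in DMSO and 1006, 936 and 957 CPM in doxycycline. Its groups overlapped and it did not pass (-0.09, SE 0.054, edgeR adjusted p = 0.244), whereas with the correction it did (-0.24, adjusted p = 5.05e-04). The count ratio of FADS1 to FADS2 was lower in every doxycycline library, at 0.345 ± 0.0215 in DMSO and 0.299 ± 0.0146 in doxycycline (SD, n = 3 each, exact permutation p = 0.1, two-sided, 0.15 adjusted over 3 ratios). FADS2 and FADS1 have 490 exonic bases opposite each other in GENCODE 29, or 4.44% and 4.79% of their exonic bases.

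The elongases did not pass. ELOVL5, which lengthens polyunsaturated chains, had 383, 357 and 392.5 CPM in DMSO and 349, 354 and 350 CPM in doxycycline, with groups apart by a narrow gap (-0.10, SE 0.049, edgeR adjusted p = 0.112). Without DMSO replicate 2 ELOVL5 passed as lower (-0.15, adjusted p = 0.0267), and with GC content and length corrected its value was 0.03. ELOVL6, which lengthens saturated chains, was at -0.15 (SE 0.078) and ELOVL1 at 0.09 (SE 0.065). ACSL3, which activates long chains at lipid droplets, had 79.5, 86.0 and 87.8 CPM in DMSO and 67.7, 73.0 and 81.4 CPM in doxycycline replicates 1, 2 and 3 (-0.19, SE 0.061, adjusted p = 0.0213). Doxycycline replicate 3 overlapped DMSO replicate 1. The ACSL3 call was lost without DMSO replicate 3 (adjusted p = 0.0623), doxycycline replicate 1 (0.161) or doxycycline replicate 2 (0.0625) and with the correction (-0.08).

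Side by side, both arms leaned slightly lower. The median over the cholesterol arm of log2(CPM + 0.5) relative to DMSO was -0.11, -0.14 and -0.09 in doxycycline replicates 1, 2 and 3, and that over the fatty acid arm was -0.07, -0.09 and -0.06. Over all tested genes the same median was 0.00 in all 3. The DMSO libraries spanned -0.04 to 0.07 in the cholesterol arm and -0.03 to 0.03 in the fatty acid arm. Centring each gene on its DMSO mean narrows that range. With TMM factors both arms' doxycycline libraries lay outside the DMSO range. Whether they would with another scaling was not tested, and the median log2 fold change of well counted genes was itself -0.04. Falls made up 7 of 18 genes (38.9%) in the cholesterol arm and 3 of 12 in the fatty acid arm, beside 23.4% of well counted genes, and rises 11.1% and 16.7%, beside 14.1%. Groups did not overlap, with doxycycline lower, for 6 cholesterol and 5 fatty acid genes of the 12 such members. The same held for 21.0% of all tested genes and for 2905 of the 9671 well counted genes. Neither the arms' difference nor a list's difference from other genes was tested. Upper-quartile scaling, which raised the median of all genes by 0.05, left 2 falls in the cholesterol arm and 2 in the fatty acid arm.

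Fold changes of these genes followed the GC content of their transcripts, as those of other genes did. Across the 36 genes the Pearson correlation of GC content with the log2 fold change was 0.43 (Spearman 0.51), and across 9592 well counted genes it was 0.49, a description over genes that share the same 6 libraries. The median log2 fold change of well counted genes went from -0.15 in the lowest of 10 equal bins of GC content to 0.13 in the highest. The 11 genes that fell had GC contents from 38.1% to 58.3%, and the 4 that rose from 54.6% to 64.2%. With GC content and length corrected, 17 of the 36 genes passed, against 22.1% of all genes so tested and 27.0% of well counted genes. Of these, 14 fell, against 11.3% of all and 17.3% of well counted genes, and 3 rose, against 10.7% and 9.67%. Then 6 genes passed that had not (SREBF1, SREBF2, SCAP, ACACA, FASN and FADS2), all lower, and 4 no longer did (MVD, IDI1, FDFT1 and ACSL3). A real change that tracks GC content or length is removed by the correction as well, so neither set of calls is preferred here.

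**Figure D3:**
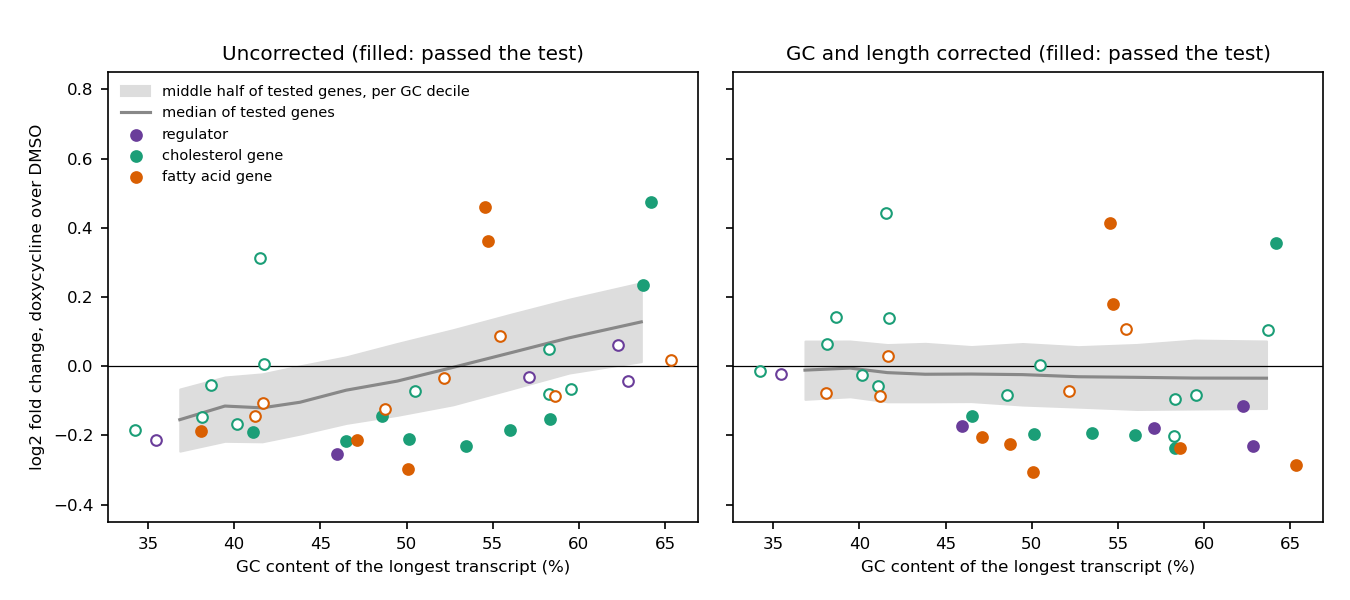
Log2 fold change of doxycycline over DMSO against the GC content of each gene's longest transcript, uncorrected (left) and with GC content and length corrected (right), with regulators in purple, cholesterol genes including STARD4 in green, fatty acid genes in orange and genes that passed filled. The grey line and band are the median and interquartile range of well counted genes in 10 bins of GC content, and the line climbs from -0.15 to 0.13 on the left and is nearly flat on the right.

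Levels differed far more between members than between groups. Per kilobase of the longest GENCODE 29 transcript, FADS2 was the highest in DMSO at 202 CPM per kb, then FDFT1 at 154, ELOVL5 at 122, ACLY at 101.0 and SREBF1 at 101 CPM per kb, and the last pair did not differ beyond their spread over libraries. INSIG1 at 92.0 and SCD at 89.7 CPM per kb followed. Most enzymes of the cholesterol arm were lower, from FDPS at 37.5 CPM per kb through SQLE at 23.6 and HMGCS1 at 8.97 to MVK at 3.77. The genes that rose were low: MVD stood at 12.6, TM7SF2 at 6.77, ACACB at 2.82 and ACSS2 at 2.42 CPM per kb in DMSO. INSIG2 had 2.06 CPM per kb. A longest transcript need not be the one these cells make, so these levels rank genes only roughly.

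**Figure D4:**
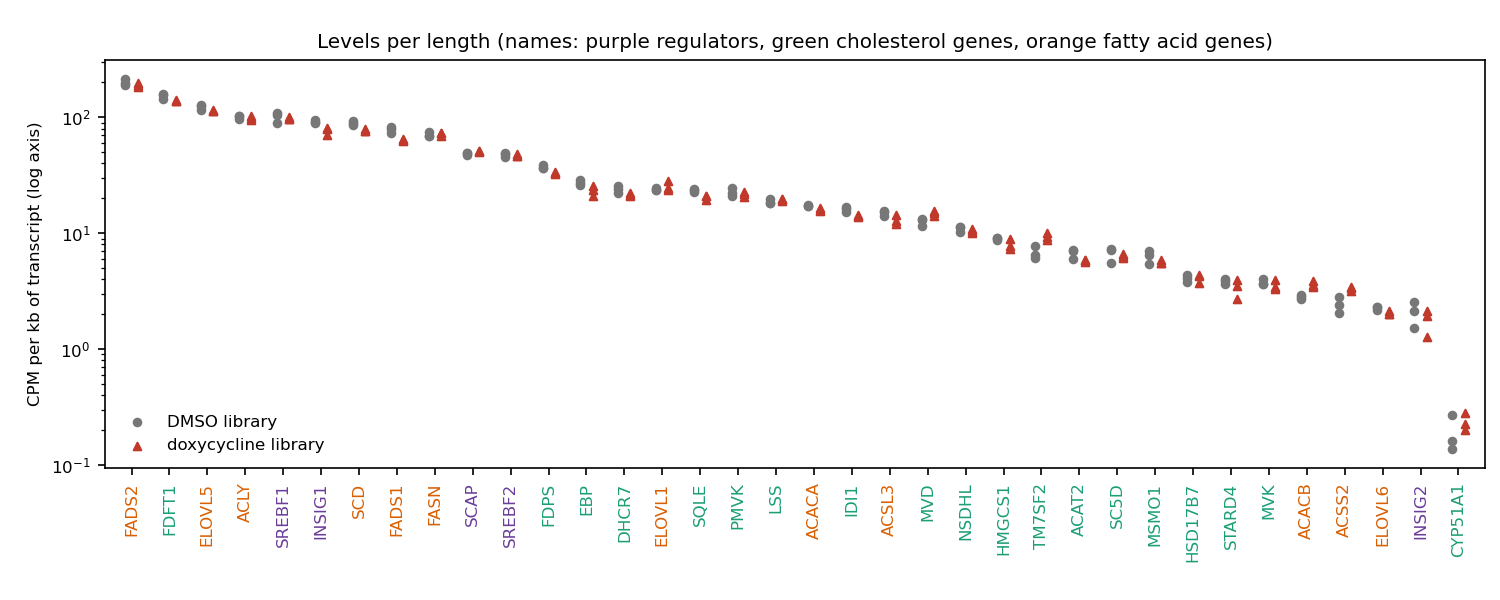
TMM-scaled CPM per kilobase of the longest transcript on a log axis, for each gene in each of 3 DMSO (grey circles) and 3 doxycycline libraries (red triangles), in order of the DMSO mean. The order runs from FADS2 at 202 to INSIG2 at 2.06 CPM per kb, with CYP51A1 far below, and the groups lie close together in every gene.

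Genes around the pathway were taken as 10 further lists, 140 of whose 152 genes were tested. Of these 36 fell (25.7%) and 16 rose (11.4%), with a median log2 fold change of -0.05. Isoprenoid use, the branch that spends farnesyl and geranylgeranyl diphosphate, held 8 falls and 0 rises among 17 genes, with a median of -0.20. PDSS1, which builds the ubiquinone tail, fell from 22.4 ± 0.695 to 17.0 ± 0.357 CPM (SD, n = 3 each, -0.40, edgeR adjusted p = 1.46e-04), and ICMT, which methylates prenylated proteins, from 153 ± 2.51 to 133 ± 2.41 CPM (SD, n = 3 each, -0.20, adjusted p = 0.00276). After correction for GC content and length, 5 of the 17 passed as lower.

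SREBP processing and turnover held 6 falls and 1 rise among 11 genes, with a median of -0.15. RNF139, an endoplasmic reticulum ubiquitin ligase, fell by 0.32 (edgeR adjusted p = 5.66e-04). With GC content and length corrected 3 of the 11 fell. Nuclear receptors and partners held 1 rise, RXRA (0.38, adjusted p = 2.27e-04; 0.19 with the correction), and 1 fall, the NF-Y subunit NFYB (-0.30, adjusted p = 3.72e-04; -0.12 and not passing with the correction), among 10. Sterol trafficking and storage held 1 fall among 11, that of the lysosomal lipase LIPA (-0.17, adjusted p = 0.0215), which was lost without DMSO replicate 1 (0.0816), doxycycline replicate 1 (0.0656) or doxycycline replicate 3 (0.123). Upper-quartile scaling (0.101) and the correction (-0.04) ended it too.

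Supply of acetyl-CoA and NADPH held 4 falls and 1 rise among 10. AACS, which activates acetoacetate for lipid synthesis, rose from 17.0 ± 1.26 to 22.02 ± 0.161 CPM (SD, n = 3 each, 0.38, edgeR adjusted p = 3.88e-04), and MID1IP1, an activator of acetyl-CoA carboxylase, fell from a mean of 151 to one of 126 CPM (-0.27, adjusted p = 7.45e-04). Activation and uptake of fatty acids held 3 rises and 3 falls among 10: FABP5, a fatty acid carrier, fell by 0.52 (adjusted p = 1.76e-05) and SLC27A1, a fatty acid transporter, rose by 0.37 (1.76e-04). Other elongation and desaturation genes held 2 falls and 1 rise among 11, with PTPLAD1, a dehydratase of elongation, falling by 0.25 and FADS3, a relative of FADS1, rising by 0.33. Mitochondrial fatty acid synthesis held 2 falls and 1 rise among 10. Of these, MECR, its reductase, fell by 0.24, a call lost without doxycycline replicate 2 (adjusted p = 0.0520), and NDUFAB1, its acyl carrier, fell by 0.28, a call lost with the correction (-0.10).

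Glycerolipid and phospholipid synthesis held 2 falls and 2 rises among 26, with GPAM, which starts triglyceride assembly, falling by 0.32 and AGPAT5 by 0.24. Fatty acid oxidation, the opposite process, held 7 falls and 6 rises among 24, of which the smallest p-values were those of ACADM, an acyl-CoA dehydrogenase, at -0.27 and ETFA, its electron acceptor, at -0.36. After the correction the changes of several named genes were smaller by over 1.5 times but still passed: ACADM (-0.11), ETFA (-0.22), PDSS1 (-0.22), RNF139 (-0.21), PTPLAD1 (-0.13), FADS3 (0.21), SLC27A1 (0.22) and AGPAT5 (-0.13). The counts of the lists lay on both sides of the 23.4% and 14.1% of well counted genes that fell and rose, and no list was tested as a set.

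In the authors' deposited table, made with DESeq2, 14 of the 36 genes had an adjusted p-value under 0.05, 10 lower and 4 higher, beside 15.6% and 9.79% of all genes given one there. Of these 14, 13 were among the 15 called by edgeR, all 13 in the same direction. ACACA was called there alone, and ACAT2 and DHCR7 only by edgeR (in the authors' deposited table, adjusted p-values of 0.0803 and 0.0594).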

How the data were processed

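RNA was sequenced from 3 DMSO and 3 doxycycline samples of RPMI-8402. Per the labels' protocols, libraries were strand-specific and sequenced from both ends. The authors deposited raw counts per gene, and a table of their DESeq2 comparison with mean normalized signal, log2 fold change and standard error, Wald score, p-value and adjusted p-value per gene. STAR 2.5.2a, featureCounts, DESeq2 1.12.4 and hg19 are named per the submitters' processing notes; the sources used here give neither annotation nor strand setting. Of the deposited values, counts and the table's fold changes and adjusted p-values are printed.

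Counts of 23121255 to 26214598 per library over 63677 genes were filtered with filterByExpr (15492 genes kept), scaled with TMM and tested with edgeR 4.0.16 (quasi-likelihood, R 4.3.3) with treatment alone, adjusted by Benjamini-Hochberg over all tested genes at 0.05. SE is the size of the log2 fold change over the root of its F statistic. On simulated counts the main fit called 64% of 50 genes changed 1.25-fold in the right direction, and 98% of 50 changed 1.5-fold. Changes smaller than 1.25-fold were not simulated, so a gene that did not pass is not shown to be unchanged. GC content and length came from GENCODE 29 (GRCh38), matched for 97.8% of tested genes by identifier or unique symbol, and entered as an offset from splines with 5 degrees of freedom. Members, lists and tests were chosen with earlier results of these data known. Named genes are all members, MYC, and the 2 called genes of smallest p in each further list, of which 1 is not reported here; TCP1, LRRD1, HSD17B7P2, LBR and AC000120.2 were added, after values were seen, for overlap or similarity. Alternatives were DESeq2 1.42.0, upper-quartile scaling, library size alone, no filter, a replicate block, the GC and length correction, both together, and leaving out each sample. Figures were drawn with matplotlib 3.10.9.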

Additional observations from a re-analysis of the deposited data

How the results depend on the processing

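Counts of falls depended on scaling. Among members, falls numbered 11 in the fit described, 5 under upper-quartile scaling, 6 under library size alone and 6 to 9 with 1 sample left out; in the cholesterol arm 7, 2, 3 and 3 to 6. Upper-quartile scaling gave 1585 falls and 2871 rises over all genes against 2408 and 2137 (1606 and 2758 under library size alone), and medians of -0.063 (cholesterol) and -0.047 (fatty acid); library size alone gave -0.068 and -0.052, and no filter a fatty acid median of -0.11. With GC content and length corrected, SCAP (-0.12) and FASN (-0.29) reversed; the cholesterol arm had a median of -0.0697 and 1 rise, and the fatty acid arm 5 falls. The replicate block with that correction gave -0.12, -0.28, -0.0689, 1 and 5, and 4 cholesterol falls. Rises in the cholesterol arm numbered 1 to 2 with 1 sample left out, and those of the other pathway genes 8 to 17 against 16. DESeq2 called 1348 rises over all genes against 2137, and 10 among other pathway genes; it is no second opinion to the authors' deposited table, whose log2 fold changes it matched within 0.001 for all 30476 genes. Across the alternatives the cause of each change was not tested.

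Same-numbered samples did not deviate together (correlations of -0.06, -0.23 and 0.09 over 10864 genes for numbers 1, 2 and 3), so the numbers are not taken as pairs. With a replicate block 9 members fell and 4 rose, FDFT1 (edgeR adjusted p = 0.0584) and DHCR7 (0.0657) no longer passing. Depth limits CYP51A1 most, with 10 to 24 reads per library, then INSIG2.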

Other observations

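LBR, a sterol reductase that catalyses the same step as TM7SF2 and was chosen after its values were seen, had a mean of 307 CPM in DMSO and 277 CPM in doxycycline, a log2 fold change of -0.15 (SE 0.054, edgeR adjusted p = 0.0368). Its groups overlapped, whereas those of TM7SF2, at 14.2 and 19.7 CPM, did not. For LBR the call was lost with upper-quartile scaling (adjusted p = 0.162) and with GC content and length corrected (0.01).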
